A study of Rattus norvegicus with 4 samples.

Results

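The oral epithelial line ROE2 was compared with itself at a single temperature, as cultures that had spent 9 days and 3 days at 37 °C. The comparison is the log2 value of the day 9 array minus that of the day 3 array, so that the step from 33 °C to 37 °C lies outside it. Each gene stands for its brightest probe set, by the mean of all 4 arrays in the series, and was kept if any of those arrays read 6 or more on the log2 scale. This left 8802 of 14218 genes (61.9%), with Hipk3 just inside (maximum 6.0014) and Amph just outside (maximum 5.9997). Genes are called higher or lower on day 9 where the difference reached 2-fold, which is 1 in log2 units. Just inside that line lay Rnf223 (1.0006) and Ncapd2 (-1.0002), and just outside it Eloa (0.99997) and Acot2 (-0.9997).

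ROE2 is a line without a limited life span, derived from the tongue of a fetal Wistar rat that carried a transgene for the temperature-sensitive large T antigen of simian virus 40. Both cultures carried that transgene. Both grew on collagen type I in DMEM/F12 with 2% serum, insulin, transferrin, ethanolamine, selenite and 10 ng/ml EGF, first for 24 h at 33 °C and then at 37 °C. RNA of each day went to 1 rat Affymetrix array, read out near the 3' ends of transcripts, and the days 0 and 6 arrays appear here only as levels beside the days compared. With 1 array per day there is no replicate check, no error on any value and no test, and day, culture and array cannot be told apart. Because the line is a single cell line, the values describe these cultures and not oral epithelium.

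The large T antigen binds and inactivates p53 and the retinoblastoma proteins, and its temperature-sensitive form loses this activity when cells are warmed. Cells of a stratified oral epithelium leave the basal layer, stop dividing, replace basal keratins by suprabasal ones such as keratin 13, and cross-link small proline-rich proteins, loricrin and others into an envelope under the plasma membrane. Cells short of amino acids or under endoplasmic reticulum stress make the transcription factor ATF4, which turns on genes for amino acid synthesis, amino acid transport and tRNA charging.

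The days 3 and 9 arrays had the same overall range, with medians over all probe sets of 5.22 and 5.24 and maxima of 14.1 and 14.2. All 18 probe sets for hybridisation spike-ins, transcripts added to every array in a fixed amount, read higher on day 9, by a median of 0.48 (range 0.21 to 0.56). Centring the arrays on them would lower every difference below by 0.48 and move the median gene from -0.07 to -0.55. Medians of gene lists below are therefore to be read against the median of all genes, -0.07, a gap which this shift does not alter. Of the 38 list medians, 2 stay above 0 under that centring, those of the suprabasal keratins (0.25) and the barrier lipid enzymes (0.11). The 3' to 5' difference of the β-actin control probe sets was 2.44 on day 3 and 2.35 on day 9, and that of the GAPDH controls 0.04 and 0.18. All 8 defining epithelial markers (Krt5, Krt14, Tp63, Cdh1, Epcam, Krt13, Perp and Dsp) were at 6 or more. Of 62 measured markers of 8 other cell types, 6 reached 6 on day 3 or 9, and 1 of them, Mcpt8, differed by 2-fold or more.

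On day 9, 153 of the 8802 genes (1.74%) were higher and 322 (3.66%) were lower than on day 3. Counts in the gene lists below are to be read against these shares. Lower genes made up 67.8% of the 475, against 57.4% after median-gene centring and 96.4% after spike-in centring. At 4-fold or more the counts were 15 higher and 42 lower. Most genes lay close together, with 7207 (81.9%) within 1.5-fold, and the 5th and 95th percentiles of the differences were -0.89 and 0.64. Among the genes called, 5 higher and 14 lower ones were, on their dimmer day, no brighter than the top one of 27 bacterial control probe sets (4.36 on day 3 and 4.56 on day 9). For these genes the fold is given as a bound, the bright array against that control, and is written "at least".

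**Figure D1:**
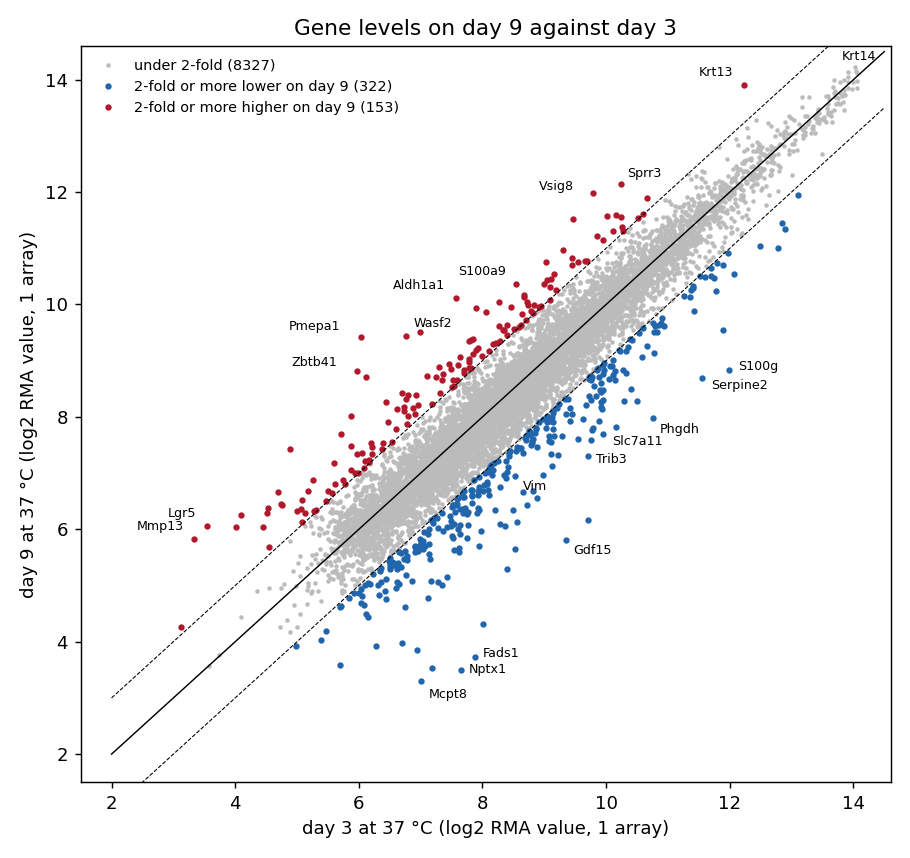
Level of each of the 8802 kept genes on day 3 (horizontal axis) and day 9 (vertical axis), both log2 RMA values from 1 array; the solid line marks equal levels and the dashed lines a 2-fold difference. The 322 blue points are lower and the 153 red points higher on day 9; Gdf15, Phgdh, S100g and Serpine2 lie far below the line, Pmepa1 and Zbtb41 far above it.

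Genes with several probe sets gave a check within the arrays. For the genes called higher, 71 other probe sets of 45 genes reached 6, of which 87.3% were also higher on day 9 and 35.2% by 2-fold or more. For the genes called lower, 81 other probe sets of 64 genes reached 6, of which 87.7% were also lower and 37.0% by 2-fold or more. Among other probe sets of genes not called, 57.5% were higher on day 9 and 42.4% lower. Of all these probe sets, 7.61% were 2-fold or more higher and 2.16% lower. This lean to higher differs from that of the brightest probe sets, with 1.74% of genes higher and 3.66% lower. With the mean over the probe sets of each gene, lower genes made up 62.5% of those called. The median gap between the probe sets of a gene was 0.36 in this difference, so single genes near the 2-fold line are placed less firmly than those far from it.

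The differences of largest size lay on the lower side. Fads1, which encodes a desaturase of polyunsaturated fatty acids, was at 5.60, 7.88, 5.20 and 3.72 on days 0, 3, 6 and 9, at least 10.0-fold lower on day 9 than on day 3. Nptx1, which encodes neuronal pentraxin 1, was at 4.04, 7.66, 5.87 and 3.50, at least 8.60-fold lower. Rcan2, a regulator of calcineurin, was at 5.62, 8.01, 6.12 and 4.31, at least 10.97-fold lower, and its other probe set differed by -2.62. In all of them day 3 was the highest of the 4 days and day 9 the lowest.

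The same order held for further genes of that group with quite different roles. Gdf15, which encodes a secreted stress cytokine of the TGF-beta superfamily, was at 6.10, 9.35, 7.10 and 5.81 on days 0, 3, 6 and 9, a difference of -3.54. Ifi27l2b, of an interferon-inducible family, was at 7.50, 9.70, 7.62 and 6.16, also -3.54. Snap25, a membrane fusion protein best known from nerve terminals, was at 5.98, 8.39, 6.47 and 5.30 (-3.09). Day 3 stood apart from the other days in each. Casp4, an inflammatory caspase, differed by -2.44 and Slfn4 by -2.87. The very low density lipoprotein receptor gene Vldlr was at 4.10, 6.94, 5.17 and 3.86 on days 0, 3, 6 and 9, at least 5.20-fold lower, and a second probe set of it read -4.19.

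S100g and Serpine2 stayed well above background on every day. S100g, the gene of the calcium binder calbindin-D9k, was at 8.04, 11.99, 10.53 and 8.84 (-3.16). Serpine2, an inhibitor of serine proteases, was at 10.88, 11.56, 9.70 and 8.68 (-2.87). Day 9 was thus below day 0 for Serpine2 and above it for S100g. Tnfrsf26, a receptor of the tumour necrosis factor family, was at 6.66 and 6.70 on days 0 and 3 and at 4.28 and 3.97 on days 6 and 9, at least 4.41-fold lower.

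The mast cell protease genes Mcpt8 and Mcpt10 were both highest on day 3. Mcpt8 was at 3.35, 7.01, 5.13 and 3.29 on days 0, 3, 6 and 9, at least 5.46-fold lower on day 9. Mcpt10 was at 5.33, 7.18, 6.03 and 3.53, at least 6.16-fold lower. Probes for members of this gene family may bind transcripts of other members, which was not tested. Of the 7 mast cell markers measured, 4 were at or below the bacterial controls on both days, and the tryptase gene Tpsb2 was at 5.88 on day 3 and 6.16 on day 9.

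**Figure D2:**
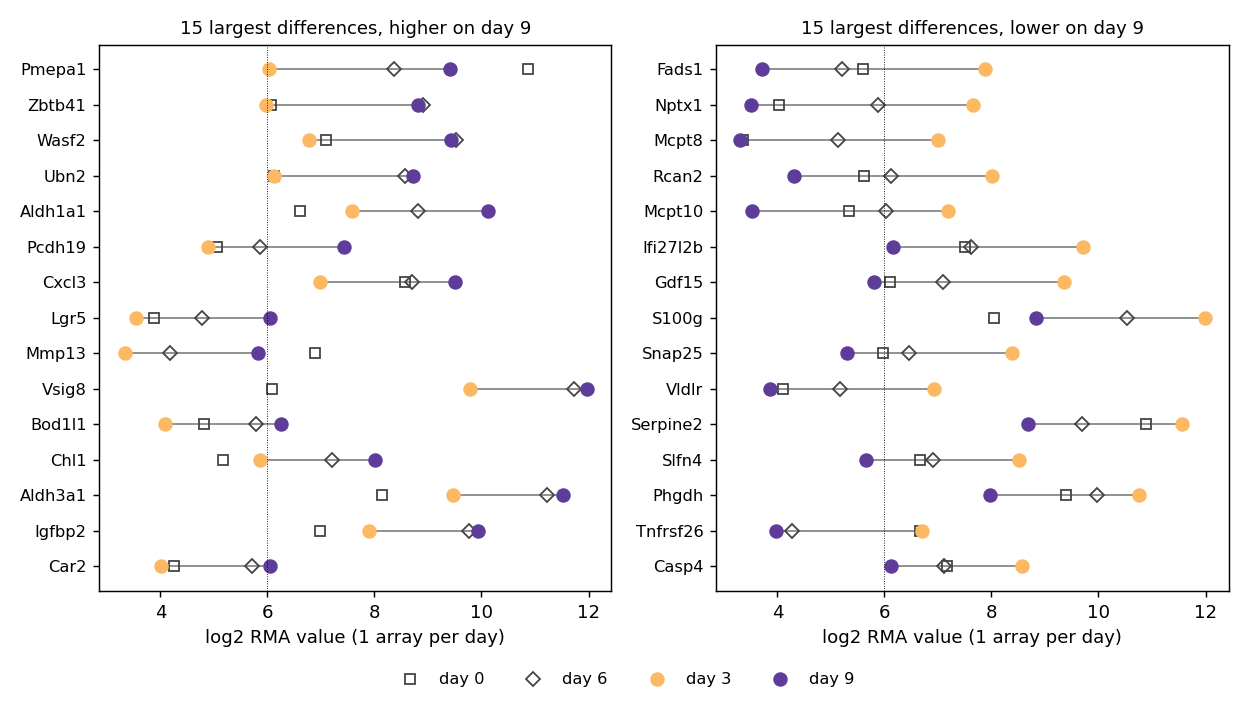
Log2 RMA values on each day (1 array per day) for the 15 genes with the largest higher (left) and lower (right) differences between day 3 (orange) and day 9 (purple); open squares are day 0, open diamonds day 6, and the dotted line is the value of 6. For the lower genes other than Tnfrsf26 and Serpine2, day 3 stands more than 2-fold above day 0, whereas the higher genes differ among themselves in where day 0 lies.

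The ATF4 and amino acid response genes held the most lower calls of any list. Of 48 genes listed, 40 were measured and 35 kept, and of those 18 were lower on day 9, 0 higher, against 3.66% lower among all genes. The median member differed by -1.01, against -0.07 for all genes. Of the 35, 33 were below 0, the exceptions being Sesn2 (0.26) and Cebpb (0.16). The count of lower members was 14 after median-gene centring, 14 of 34 when all probe sets of a gene were averaged and 27 after spike-in centring.

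Genes for serine synthesis and one-carbon metabolism made up 5 of the kept members, and 4 of them were lower, with a median of -1.63. Phgdh, which encodes the first enzyme of serine synthesis from glucose, was at 9.40, 10.76, 9.97 and 7.98 on days 0, 3, 6 and 9 (-2.78). Psph, the last enzyme of that route, was at 9.59, 10.77, 10.14 and 9.13 (-1.63), and Psat1, the step between them, at 11.66, 12.20, 11.77 and 11.28 (-0.92). Thus all steps of the route were highest on day 3 and lowest on day 9. The mitochondrial folate enzyme gene Mthfd2 differed by -1.91 and the serine hydroxymethyltransferase gene Shmt2 by -1.09. Asns, which makes asparagine, was at 10.49, 11.79, 11.73 and 10.24 (-1.55), and so still stood at its day 3 level on day 6. Cth, which makes cysteine from cystathionine, was at 7.42, 8.72, 7.24 and 6.43 (-2.29).

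Of 8 amino acid transporter genes, 5 were lower and the median was -1.20. Slc7a11, the cystine importer, was at 7.11, 9.96, 8.63 and 7.70 on days 0, 3, 6 and 9 (-2.26). Slc7a5, which imports large neutral amino acids, was at 9.42, 10.50, 9.42 and 8.28 (-2.22), whereas its partner chain Slc3a2 differed by -0.95. The neutral amino acid carriers Slc1a4 and Slc1a5 differed by -1.41 and -1.36 and the glutamine carrier Slc38a2 by -0.82. Slc7a1, which imports arginine and lysine, differed by -1.04 on its brightest probe set and by -0.12 on another. All of these transporters lay below the median of all genes.

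The 8 tRNA synthetase genes lay between -1.02 and -0.22 with a median of -0.81, and 2 of them, Wars1 (-1.02) and Mars1 (-1.01), just reached the 2-fold line. Other probe sets of these read -0.66 and -0.46. Of the 5 transcription factor genes of the list, 0 were called. Atf4 itself was at 12.67, 12.95, 12.83 and 12.67 (-0.28), Ddit3, which encodes CHOP, differed by -0.78, Atf5 by -0.42 and Atf3 by -0.39. Trib3, a pseudokinase induced by ATF4, was at 7.65, 9.78, 8.89 and 7.80 (-1.99), and its other probe sets read -2.47 and -2.40. Ddit4, an inhibitor of mTORC1, differed by -1.51 and Nupr1, a stress-induced chromatin protein gene, by -1.06.

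The composite element bound by ATF4 together with C/EBP proteins is searched here as TGATGNAA on both strands in the 250 bases before each gene's start (RefSeq, GRCr8). It occurred in 3.40% of all 33469 such windows, in 1.60% of the 7012 windows of kept genes and in 8 of 30 windows of the ATF4 list (26.7%). Those 8 belonged to Trib3, Chac1, Slc7a1, Slc1a4, Nupr1, Aars1, Nars1 and Mars1, of which 5 were lower on day 9. The list was drawn up from known responses to ATF4, so this share describes the list. Around the match, 80 bases are given for the 5 lower genes, 5′ to 3′ on the gene's strand, with the motif in capitals (as its reverse complement where it lies on the other strand).
Trib3 (chr3:161275534-161275613, minus strand): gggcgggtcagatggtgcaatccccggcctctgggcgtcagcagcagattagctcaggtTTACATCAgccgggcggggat
Slc7a1 (chr12:11664408-11664487, plus strand): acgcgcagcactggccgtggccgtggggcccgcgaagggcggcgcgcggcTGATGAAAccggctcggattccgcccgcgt
Slc1a4 (chr14:98761733-98761812, minus strand): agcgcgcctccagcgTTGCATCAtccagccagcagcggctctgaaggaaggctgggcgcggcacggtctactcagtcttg
Nupr1 (chr1:190645913-190645992, minus strand): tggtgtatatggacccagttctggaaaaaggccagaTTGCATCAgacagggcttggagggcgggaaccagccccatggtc
Mars1 (chr7:65023754-65023833, minus strand): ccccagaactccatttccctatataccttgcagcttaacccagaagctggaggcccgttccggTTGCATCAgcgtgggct
The core is TTGCATCA in Slc1a4, Nupr1 and Mars1, TTACATCA in Trib3 and TGATGAAA in Slc7a1.

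Of 28 genes of endoplasmic reticulum folding 0 were higher and 1 was lower, a share near the 3.66% of all genes, with a median of 0.16. The lower one was Ero1a, an oxidase of that compartment that is also induced by hypoxia, at 8.39, 9.93, 8.92 and 8.13 on days 0, 3, 6 and 9 (-1.79). The chaperone cofactor Dnajc3 differed by 0.98 and the disulfide isomerase Pdia4 by 0.84. On these arrays the ATF4 list and the chaperone list lay on either side of the median of all genes.

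Feedback genes of the EGF receptor and ERK pathway included some of the larger lower differences, in cultures with EGF in the medium throughout. In the list of 28 kept genes, 3 were lower and 1 was higher (10.7% and 3.57%, against 3.66% and 1.74% of all genes). The list median was -0.14. Etv5, a transcription factor induced by ERK, was at 7.54, 8.28, 6.93 and 6.09 on days 0, 3, 6 and 9 (-2.19). Spry2, an inhibitor of receptor tyrosine kinase signalling, was at 9.48, 9.55, 8.44 and 7.60 (-1.94), and Spry1 at 6.59, 7.43, 6.71 and 6.05 (-1.38). All of them were lowest on day 9. Dusp6, the phosphatase that removes phosphate from ERK, did not reach 2-fold, with probe sets at -0.83, -0.71 and -0.62. Junb, a subunit of AP-1, was the higher member, at 8.66, 9.04, 10.08 and 10.43 (1.39), or 0.91 after spike-in centring.

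**Figure D3:**
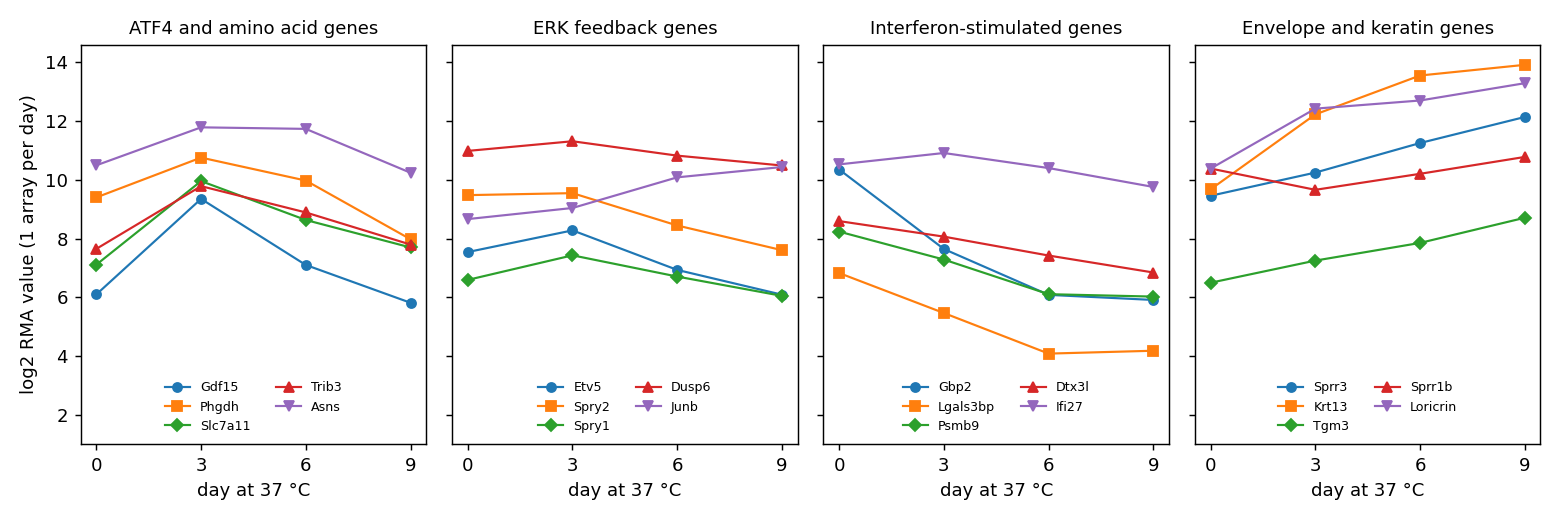
Log2 RMA values against day at 37 °C (1 array per day, lines join the days) for members of 4 lists. The ATF4 and amino acid genes peak on day 3, Etv5, Spry1 and Spry2 are lowest on day 9, the interferon-stimulated genes other than Ifi27 are highest on day 0, and Krt13, Sprr3, Tgm3 and Loricrin are highest on day 9.

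Mitosis genes were mostly lower by less than 2-fold. Of 58 kept members 5 were lower (8.62%, against 3.66% of all genes) and 0 higher. Of the same 58, 55 were below 0, and the median was -0.46. Hmmr, a spindle protein, was at 8.24, 8.77, 7.83 and 7.68 on days 0, 3, 6 and 9 (-1.09), and another probe set of it read -1.38. Cdca8, a subunit of the chromosomal passenger complex, was at 8.14, 8.42, 7.50 and 7.35 (-1.07). The phosphatase gene Cdc25b differed by -1.04, the securin gene Pttg1 by -1.01 and the condensin gene Ncapd2 by -1.0002. Most of the step fell between days 3 and 6 for Hmmr and Cdca8. Mki67, the gene of the proliferation marker Ki-67, was at 9.61, 9.61, 9.72 and 9.53 (-0.08). The list had 2 lower members after median-gene centring and 22 after spike-in centring.

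Genes of DNA replication were closer to the median of all genes. Of 48 kept members 1, the replication helicase gene Cdc45 (-1.08), was lower, against 3.66% of all genes, and the list median was -0.21. After spike-in centring 8 were lower. The sliding clamp gene Pcna was at 12.17, 12.01, 11.75 and 11.39 (-0.63). Among 25 inhibitors of cyclin-dependent kinases and quiescence genes, 3 were lower and 1 was higher. Cdkn1c, which encodes the inhibitor p57, was at 7.22, 10.33, 10.04 and 8.79 (-1.54), so on day 9 it still stood above day 0. Ccnd1, the gene of cyclin D1, was at 12.66, 13.10, 12.44 and 11.94 (-1.16). Mxd1, an antagonist of MYC, was the higher one, at 9.22, 9.85, 10.51 and 11.22 (1.37, or 0.89 after spike-in centring, where the list has 0 higher and 6 lower genes). Cdkn1a, which encodes p21, differed by 0.21 and Myc by -0.21. Of 23 p53 target genes 1, Gadd45a (-1.53), was called, a share near the 3.66% lower among all genes, and the list median was 0.06. After spike-in centring 4 of them were lower.

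The cell cycle homology region, an element of G2 and M phase promoters, was searched as TTTGAA on both strands in the same windows. It occurred in 16.2% of all windows, 9.93% of those of kept genes and 25 of 50 windows of the mitosis list. That share describes a list of known mitosis genes. Of the 25 windows, 4 belonged to lower genes. The stretches of the genes with the largest differences among them are given, with the motif in capitals.
Hmmr (chr10:25665219-25665298, minus strand): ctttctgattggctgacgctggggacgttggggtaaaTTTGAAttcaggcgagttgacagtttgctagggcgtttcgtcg
Cdca8 (chr5:142483251-142483330, minus strand): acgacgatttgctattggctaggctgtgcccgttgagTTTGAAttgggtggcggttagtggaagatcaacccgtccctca

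Interferon-stimulated genes had 6 lower members of 24 kept, 0 higher and a median of -0.38. Gbp2, a guanylate-binding protein gene, was at 10.35, 7.64, 6.08 and 5.91 on days 0, 3, 6 and 9 (-1.73). Psmb9, a subunit of the immunoproteasome, was at 8.24, 7.28, 6.11 and 6.02 (-1.26), and Dtx3l, a ubiquitin ligase gene, at 8.59, 8.07, 7.42 and 6.84 (-1.22). In these genes the values were highest on day 0 and lowest on day 9. Ifi27 had another course, with 10.52, 10.91, 10.40 and 9.76 (-1.16). Lgals3bp was at least 1.88-fold lower and Gbp4 at least 1.35-fold, since both stood under the bacterial control on day 9. These genes were also under 6 on both days compared and were kept only through day 0. With the floor on days 3 and 9 only, 4 of 22 list members were lower. Of the immune cell markers, all 7 for T cells were at or below the bacterial controls on both days, and so were 6 of 9 for macrophages and other leukocytes. Cd68, a lysosomal protein gene of macrophages, was at 6.54 on day 3 and 6.18 on day 9. Cd14, a receptor gene best known from monocytes, read 10.66, 9.68, 9.18 and 8.80 on days 0, 3, 6 and 9.

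The element that binds interferon-activated factors was searched as GAAA, any 2 bases and GAAA again, on both strands. It occurred in 3.41% of all windows, 2.42% of those of kept genes and 12 of 22 windows of the list (54.5%). The list holds genes known to respond to interferon, so this share describes the list. The windows of 4 lower genes held the motif, and their stretches are given with it in capitals.
Gbp2 (chr2:234005647-234005726, plus strand): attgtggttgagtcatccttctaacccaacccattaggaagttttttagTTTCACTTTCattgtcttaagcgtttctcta
Gbp4 (chr2:233978406-233978485, plus strand): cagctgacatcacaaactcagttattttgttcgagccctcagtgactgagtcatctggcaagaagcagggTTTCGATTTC
Ifi27 (chr6:128355193-128355272, plus strand): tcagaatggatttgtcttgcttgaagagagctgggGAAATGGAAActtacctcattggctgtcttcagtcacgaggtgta
Lgals3bp (chr10:104127854-104127933, minus strand): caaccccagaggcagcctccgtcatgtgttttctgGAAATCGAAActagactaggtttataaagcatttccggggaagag
The other 8 list genes with the motif were not called, among them Irf7 (-0.01), Tap1 (-0.46) and Psmb10 (0.65). Members with this motif in the window therefore spread from Gbp2 at -1.73 to Psmb10 at 0.65.

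Chemokine and cytokine genes went both ways, with 4 lower and 2 higher among 19 and a median of -0.51. Those shares, 21.1% and 10.5%, compare with 3.66% and 1.74% of all genes. Csf3, the gene of granulocyte colony stimulating factor, was at 9.84, 8.37, 6.30 and 6.06 on days 0, 3, 6 and 9 (-2.31). Cxcl10, an interferon-induced chemokine gene, was at 4.98, 6.75, 5.29 and 4.62 (-2.13), and Il24, of the interleukin-10 family, at 11.20, 12.49, 11.41 and 11.04 (-1.45). Cxcl3, a chemokine gene for neutrophils, was the opposite, at 8.58, 6.99, 8.70 and 9.50 (2.51), with other probe sets at 2.27 and 2.17. Ccl2, a chemokine gene for monocytes, was at 10.76, 5.001, 3.96 and 6.32 (1.32, or 0.84 after spike-in centring). After that centring the list had 8 lower and 1 higher. Cxcl3 on day 9 was thus above its day 0 level and Ccl2 well below it.

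Several genes were low on day 3 and higher again on day 9. Pmepa1, a feedback inhibitor of TGF-beta signalling, was at 10.87, 6.04, 8.37 and 9.42 on days 0, 3, 6 and 9, and with 3.38 it held the largest higher difference of the 8802 genes. Mmp13, a collagenase gene, was at 6.89, 3.34, 4.17 and 5.82, at least 2.76-fold higher on day 9 than on day 3. It was under 6 on both days compared and was kept only through day 0. With the floor on days 3 and 9 only, 0 of 6 matrix metalloproteinase and TIMP genes were higher. Mmp3, the gene of stromelysin-1, was at 9.80, 3.12, 2.91 and 4.25; it met the size rule with 1.13, but both days lay below the bacterial controls and no fold is given. S100a8 and S100a9, whose products form calprotectin, were at 9.03 and 8.55 on day 3 and 10.75 and 10.36 on day 9 (1.72 and 1.81), near their day 0 levels of 10.29 and 10.41. For all of these day 3 or day 6 was the lowest of the 4 days.

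The other TGF-beta, SMAD and YAP response genes went both ways. Of 21 kept members 12 were above 0, 4 were lower by 2-fold or more and Pmepa1 alone was higher, with a median of 0.10. The called shares were 19.0% lower and 4.76% higher, against 3.66% and 1.74% of all genes. The lower count was 1 after median-gene centring and 6 after spike-in centring. Ltbp1, which encodes a protein that anchors latent TGF-beta, was at 10.03, 9.77, 8.32 and 7.77 (-2.005). Ccn2, a connective tissue growth factor gene, was at 12.31, 11.96, 11.40 and 10.91 (-1.05), and the signal transducer gene Smad3 at 9.25, 8.99, 8.30 and 7.97 (-1.02). Tgfbi differed by -1.02. Thus 3 of these 4 genes went down in level from each day to the next, and Tgfbi was highest on day 3.

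Of 9 mesenchymal genes above the value of 6, 2 were lower (22.2%, against 3.66% of all genes) and 0 higher. Their median was -0.52. Vim, the gene of the intermediate filament protein vimentin, was at 10.58, 8.53, 6.51 and 6.95 on days 0, 3, 6 and 9 (-1.58). Fn1, the gene of fibronectin, was at 11.92, 10.88, 9.82 and 9.66 (-1.22). Both had their highest value on day 0. Of the 10 fibroblast markers measured, 1, Col5a1, was above 6 on the days compared (7.07 and 7.18), and 7 were at or below the bacterial controls on both days.

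On the higher side, the genes with the largest differences after Pmepa1 were Zbtb41, Wasf2 and Ubn2. Zbtb41, a zinc finger protein gene, was at 6.07, 5.97, 8.90 and 8.81 on days 0, 3, 6 and 9 (2.84). Wasf2, an activator of actin branching, was at 7.09, 6.77, 9.53 and 9.43 (2.66), and Ubn2, a histone chaperone gene, at 6.13, 6.12, 8.56 and 8.71 (2.59). All of them formed a step, with days 0 and 3 low and days 6 and 9 high. Nipbl, the cohesin loader gene, had the same step on the probe set that represents it (8.31, 8.27, 9.96 and 10.05) and on a second one (2.71), but another read -0.34. Clip1, of microtubule ends, read 1.80 and 2.23 on its probe sets and the ubiquitin ligase gene Herc1 1.57 and 3.35. For Nipbl the step was thus not shared by every probe set.

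Genes of aldehyde and retinoid metabolism were among the larger higher differences. Aldh1a1, which oxidises retinal to retinoic acid, was at 6.61, 7.58, 8.82 and 10.12 on days 0, 3, 6 and 9 (2.55). Aldh3a1, an aldehyde dehydrogenase abundant in the cornea, was at 8.14, 9.47, 11.22 and 11.53 (2.06). Both were higher on each day than on the day before. Of 15 retinoid genes 3 were higher (20.0%, against 1.74% of all genes) and 0 lower, with a median of 0.11. The others were Cyp26b1, which degrades retinoic acid (10.45, 8.35, 8.67 and 9.54, 1.19, with 1.17 on another probe set), and Cyp2s1 (4.60, 6.90, 7.70 and 8.05, 1.15). After spike-in centring, only Aldh1a1 of these 3 stayed 2-fold higher, with Cyp26b1 at 0.71 and Cyp2s1 at 0.67. The 34 NRF2 and detoxification genes had a median of 0.00 with 2 higher (both aldehyde dehydrogenases) and 2 lower, Slc7a11 and the glutathione transferase gene Mgst2 (-1.40). Each pair made up 5.88% of the list, against 1.74% higher and 3.66% lower among all genes.

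Suprabasal keratins had the highest median of the 38 lists, 0.73 over 5 kept genes. Of these 5, 2 were higher (40.0%, against 1.74% of all genes). Krt13, the keratin of suprabasal oral cells, was at 9.68, 12.23, 13.55 and 13.91 on days 0, 3, 6 and 9 (1.69). Krt1, a keratin of cornifying epithelia, was at 4.32, 5.78, 6.50 and 6.80 (1.02), or 0.55 after spike-in centring. With values below 6 set to 6 the list had 1 higher and 0 lower genes, and after spike-in centring 1 higher and 1 lower. Krt78 differed by 0.73, Krt23 by 0.22 and Krt10, the partner of keratin 1, by -0.62 (7.20, 9.40, 8.96 and 8.78). The basal keratin genes Krt5 and Krt14 differed by 0.24 and 0.11, from levels of 12.92 and 14.04 near the top of the array's range. Krt15, of the same basal list, differed by 0.73 (9.11, 11.06, 12.23 and 11.78 on days 0, 3, 6 and 9) and Krt17 by 0.30. A higher level on day 9 was thus not particular to the suprabasal keratins. Of 16 basal layer and adhesion genes 0 were called.

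Of 22 cornified envelope genes 3 were higher (13.6%, against 1.74% of all genes) and 0 lower. Of the same 22, 19 were above 0, and the median was 0.31. Sprr3, a small proline-rich protein gene of oral and oesophageal epithelium, was at 9.46, 10.25, 11.25 and 12.14 (1.89). Tgm3, a transglutaminase that cross-links the envelope, was at 6.50, 7.25, 7.85 and 8.71 (1.46), and Sprr1b at 10.38, 9.66, 10.20 and 10.78 (1.12). Loricrin differed by 0.87 and Calml5 by 0.87. The envelope gene Ivl was under 6 on every day (3.89, 5.16, 5.25 and 4.51 on days 0, 3, 6 and 9) and was not kept. Sprr3 alone stayed 2-fold higher after spike-in centring, where the median of the list is -0.17, with Tgm3 at 0.98 and Sprr1b at 0.64.

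The AP-1 site, searched as TGANTCA on both strands, occurred in 6.34% of all windows, 4.52% of those of kept genes and 8 of 19 windows of envelope genes (42.1%). Here too the share describes a list of known genes. Sprr1b was the only one of the 8 that was called. Its stretch is given with that of Loricrin, the next largest difference of the 8.
Sprr1b (chr2:180706429-180706508, minus strand): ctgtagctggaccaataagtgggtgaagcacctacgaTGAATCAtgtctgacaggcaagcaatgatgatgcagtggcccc
Loricrin (chr2:180256581-180256660, minus strand): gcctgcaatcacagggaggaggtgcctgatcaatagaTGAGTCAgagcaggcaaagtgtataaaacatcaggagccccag
The site reads TGAATCA in Sprr1b and TGAGTCA in Loricrin.

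Barrier lipid enzymes had 3 higher genes of 16 (18.8%, against 1.74% of all genes), 0 lower, 15 above 0 and a median of 0.59. Elovl6, a fatty acid elongase, was at 9.70, 9.09, 9.51 and 10.30 on days 0, 3, 6 and 9 (1.21). Fa2h, which hydroxylates the fatty acids of ceramides, was at 6.24, 7.71, 8.52 and 8.84 (1.13), and Sult2b1, which makes cholesterol sulfate, at 8.84, 10.26, 11.09 and 11.38 (1.12). After spike-in centring these read 0.73, 0.65 and 0.65, and the list has 0 genes called.

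Surface proteases and inhibitors gave 2 higher and 1 lower gene of 19, with a median of 0.35. Those shares, 10.5% and 5.26%, compare with 1.74% and 3.66% of all genes. Prss8, the channel-activating protease prostasin, was at 7.55, 8.26, 9.43 and 9.61 (1.35), or 0.87 after spike-in centring. Wfdc21, a secreted inhibitor-like protein gene, was at 5.48, 7.34, 6.39 and 5.01 (-2.33), while its relative Wfdc2 differed by 1.05 (0.57 after spike-in centring). Wfdc2 reached 6 on day 9 only, and with values below 6 set to 6 the list had 1 higher and 1 lower gene. Vsig8, a membrane protein gene of the immunoglobulin superfamily, was at 6.08, 9.79, 11.73 and 11.98 (2.19). The galectin-7 gene Lgals7 was at 6.34, 10.39, 11.53 and 11.36 (0.97). For Vsig8 and Lgals7 the step from day 0 to day 3 was larger than the one from day 3 to day 9.

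Transcription factors of stratified epithelial differentiation had 2 higher and 1 lower gene of 22 and a median of 0.21. Those shares, 9.09% and 4.55%, compare with 1.74% and 3.66% of all genes. Cebpa, which acts in suprabasal keratinocytes, was at 7.14, 8.67, 9.85 and 10.13 (1.46), and its other probe sets read 1.504, 1.495 and 1.25. Sox7 was at 4.84, 7.49, 8.46 and 8.85 (1.36). Id3, an inhibitor of basic helix-loop-helix factors, was at 10.83, 10.78, 10.45 and 9.52 (-1.26). After spike-in centring, Cebpa read 0.98 and Sox7 0.88. Tp63, the factor of the basal layer, differed by -0.35 and Klf4, a factor of terminal differentiation, by 0.09.

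Wnt and Notch genes had 3 higher and 1 lower of 24, with a median of 0.12. Those shares, 12.5% and 4.17%, compare with 1.74% and 3.66% of all genes. Lgr5, a receptor for R-spondins, was at 3.87, 3.54, 4.78 and 6.05 on days 0, 3, 6 and 9, at least 3.23-fold higher on day 9 than on day 3. Its relative Lgr4 was at 6.43, 5.69, 5.39 and 4.61 (-1.08), under 6 on both days compared and kept only through day 0. With the floor on days 3 and 9 only, the list had 3 higher and 0 lower genes of 22. Lrp6, a Wnt co-receptor gene, was at 6.41, 6.43, 8.04 and 8.27 (1.84), and the ligand gene Wnt4 at 10.08, 10.02, 10.84 and 11.57 (1.55). All 3 higher genes also passed after spike-in centring. Lgr5, however, reached 6 on day 9 only, so it was kept through the day on which it is high. With values below 6 set to 6, the list had 2 higher and 0 lower genes of 24. Notch1 was at 9.70, 8.82, 9.48 and 9.81 (0.99), just under the line.

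Other higher genes had diverse roles. Igfbp2, which binds insulin-like growth factors, was at 6.99, 7.90, 9.76 and 9.94 (2.04). Chl1 and Pcdh19, both of cell adhesion families, were at 5.87 and 4.88 on day 3 and 8.01 and 7.43 on day 9 (2.14 and 2.54). Car2, the gene of carbonic anhydrase 2, was at least 3.22-fold higher and Bod1l1, a genome stability gene, at least 3.73-fold. Pcdh19, Car2 and Bod1l1 reached the value of 6 on day 9 only and were kept through that day. The desmosomal cadherin gene Dsg1 was at 9.77, 9.95, 10.71 and 11.15 (1.204, or 0.73 after spike-in centring), the only called gene of 12 in its list. That is 8.33% of the list, against 1.74% higher among all genes. The simple epithelial keratin gene Krt20 was at 6.64, 7.61, 8.55 and 8.92 (1.31, or 0.83).

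Several large groups of basic cell function held no called gene. In all, 11 of the 38 lists had no member called. Ribosome biogenesis (61 genes) had a median of -0.12, cytosolic ribosomal proteins (40 genes) -0.14, and the respiratory chain (66 genes) -0.04. Heat shock and cold-inducible genes (17) had a median of -0.03 in cultures at the same temperature. Proteasome subunits (34 genes) were mostly slightly above the median of all genes, with a median of 0.22 and a highest value of 0.81 for Psmd3. Tight and adherens junction genes (21) had a median of 0.17 and lay between -0.51 and 0.44. Glycolysis and hypoxia genes had 3 lower of 33 (9.09%, against 3.66% of all genes) and a median of -0.15. The lower ones were Ero1a, Pfkfb3 (-1.22) and Bnip3 (-1.05). Cholesterol genes had 1 lower, the exporter Abcg1 (-1.32), and 1 higher, the liver X receptor gene Nr1h2 (1.04, or 0.56 after spike-in centring), of 32. Each was 3.1% of the list, against 3.66% lower and 1.74% higher among all genes. With the mean over the probe sets of each gene, 0 of the 32 were called. Of the 11 reference genes, Polr2a lay highest (0.61) and Sdha lowest (-0.56).

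**Figure D4:**
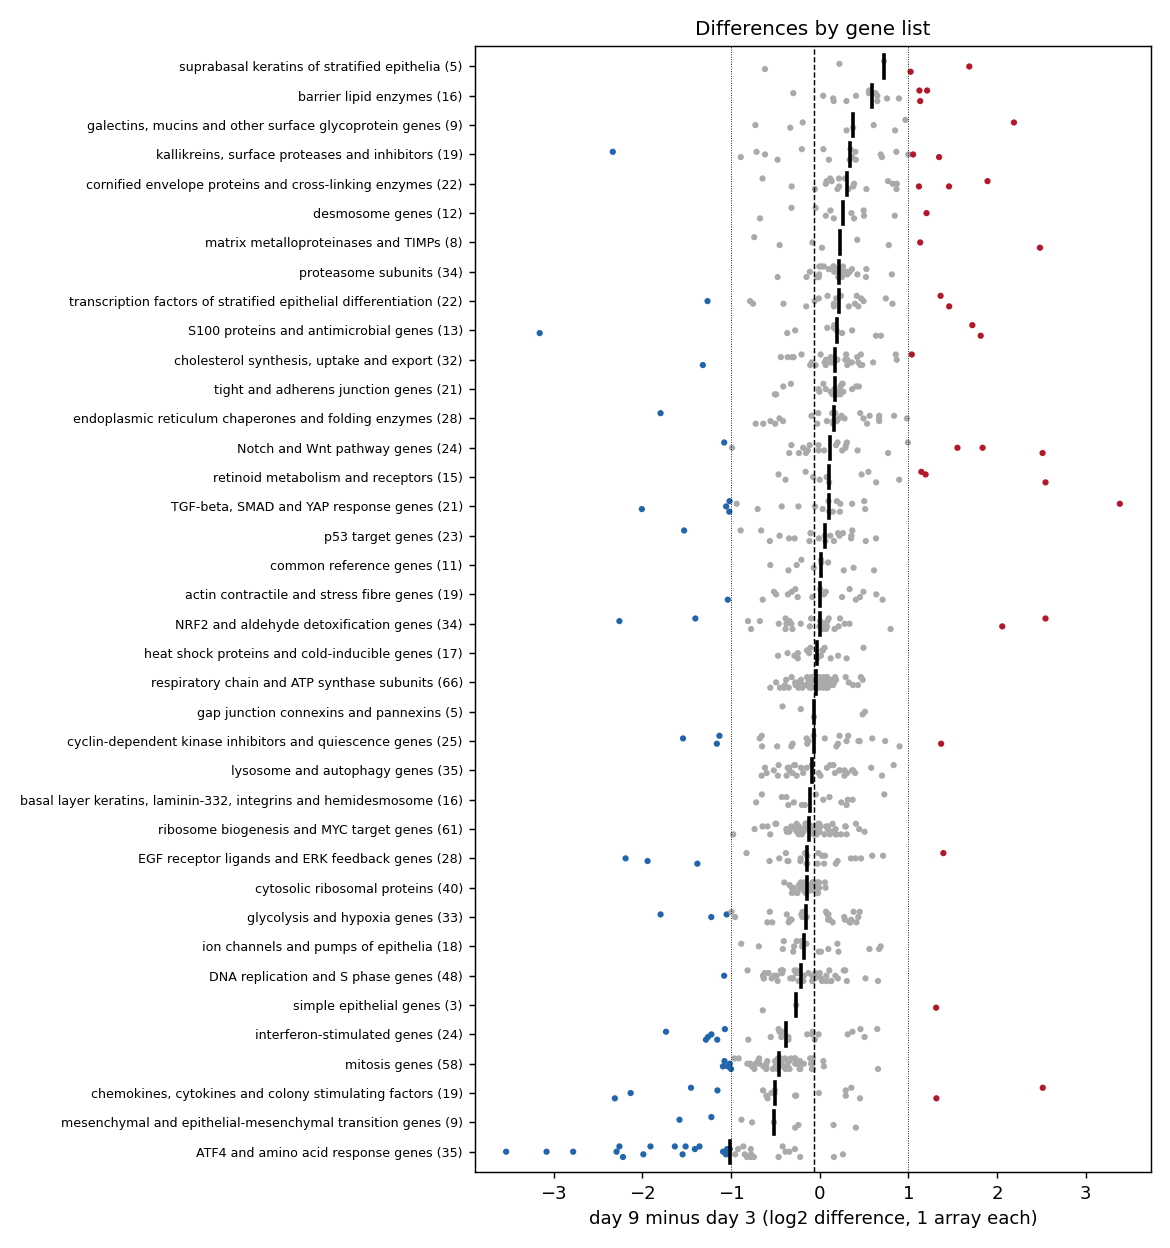
Day 9 minus day 3 on the log2 scale (1 array each) for the kept members of 38 gene lists, with the number kept in brackets; each point is a gene, blue and red points are 2-fold or more lower and higher, black bars are list medians, dotted lines mark 2-fold and the dashed line the median of all genes. The ATF4 and amino acid list has the lowest median, -1.01, and the suprabasal keratins the highest, 0.73.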

How the data were processed

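The values are log2 probe set values that the authors made with RMA, per the submitters' processing notes. RMA corrects background, puts arrays on a common distribution and summarises probes. The software and version used for RMA were not given in the sources used here. Base 2 of the logarithm is inferred from the span of the values. Scanner files were not used here. RMA largely removes a shift of most genes in one direction, so RNA per cell was not measured. The number of arrays, 1 per day, limits the precision.

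Of 31099 probe sets, 57 were controls. By the platform annotation 20832 had 1 symbol, 436 several and 9831 none. The RefSeq table held the Entrez identifiers of 20764 and changed 0 symbols. Differences were computed in Python 3.11.15 with numpy 2.4.6 and pandas 2.3.3, and drawn with matplotlib 3.10.9. The members, the 38 gene lists, the markers and the motifs were chosen with earlier results of these data known. The rule for naming genes took the top 15 differences on either side and the 5 largest of each list (all members of lists with fewer than 8). It also took a fixed set of keratin, differentiation, proliferation and reference genes, genes next to the thresholds and list members with a motif. Further members of the ATF4, chemokine, TGF-beta, interferon and Wnt lists, and Nipbl, Clip1, Herc1, Cd14, Cd68, Tpsb2 and Col5a1, were named after their values were seen, as was the grouping of ATF4 genes by role. Alternatives were other floors, probe set rules, scalings and fold thresholds. Promoter windows and coordinates are from RefSeq (GRCr8). Genes with several windows were left out of the motif counts for lists and kept genes, but not of the shares over all windows.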

Additional observations from a re-analysis of the deposited data

Results flagged for a closer look

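Probe sets without a single gene symbol also carried differences. Of 2670 such probe sets with a value of 6 or more, 71 (2.66%) were 2-fold or more higher on day 9 than on day 3 and 190 (7.12%) lower. The control probe set for 5S ribosomal RNA, which the gene comparison does not use, was 1.5 higher on day 9 than on day 3, at 5.61, 4.97, 5.20 and 6.47 on days 0, 3, 6 and 9. These were singled out because they lie outside the genes compared.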

How the results depend on the processing

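With 1 array per day nothing could be left out, and no replicate error exists. No paired analysis was possible because each day has 1 array. The counts of 153 higher and 322 lower genes became 47 and 1251 after spike-in centring, 541 and 1054 at 1.5-fold and 36 and 76 at 3-fold. With a value of 8 in place of 6 they were 106 and 194; fewer genes were then counted. Under no floor, a floor of 5, a floor on days 3 and 9 only, the mean over probe sets, probe sets without a cross-hybridisation mark, median-gene centring, a further quantile normalization and values below 6 set to 6, they lay between 124 and 196 higher and between 238 and 371 lower. Of the 211 kept genes named by size, by list rank or in the fixed set, spike-in centring took 19 under the 2-fold line and 35 past it. It changed the sign of 13 others, all under that line. Median-gene centring took 8 under the line and 4 past it, and setting values below 6 to 6 took 14 under it. Every list median was lowered by 0.48 under spike-in centring. Genes near the bacterial controls have only bounds.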

Other observations

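Among the probe sets without a single gene symbol, the largest lower differences were -3.68 (1368501_s_at), -3.50 (1391552_at) and -3.27 (1373628_at), and the largest higher ones 2.86 (1382324_at), 2.74 (1374283_at) and 2.55 (1391331_at). Fgf9, a fibroblast growth factor gene named after its values were seen, differed by -2.24 on 1 probe set and -1.92 on another.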
